A study of Mus musculus with 12 samples.

Results

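The ribosome biogenesis factors and Myc comprised 41 genes, the transcription factor gene Myc and 40 nucleolar and ribosome assembly factors that were listed by name. All 41 were found in both deposited expression tables, out of 16232 genes measured in vivo and 24421 measured in vitro, and none was listed at 0 in any library. By role they were Myc, 4 subunits of RNA polymerase I, 3 box C/D and 4 box H/ACA proteins of the small nucleolar ribonucleoproteins (snoRNPs), 4 nucleolar phosphoproteins and chaperones, 14 factors of small subunit assembly and 11 factors of large subunit assembly.

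Ribosomes are built in the nucleolus, where RNA polymerase I transcribes the precursor of the ribosomal RNA. Box C/D snoRNPs guide methylation and box H/ACA snoRNPs guide pseudouridylation of that precursor, while assembly factors fold it, cut it and escort the small and the large subunit out of the nucleolus. Myc binds E-box sequences with its partner Max, is known to raise the transcription of ribosome biogenesis genes, and is induced in T cells when their antigen receptor is engaged.

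Polyadenylated RNA, selected with oligo-dT beads, was sequenced from mouse regulatory T cells (Treg), the CD4 T cells that express Foxp3 and restrain immune responses, taken from spleen and lymph nodes. The 12 libraries formed 6 groups of 2. Wild-type (WT) Treg and Treg of the Kdm2b conditional knockout (cKO) were each profiled in vivo, after culture without stimulation, and after stimulation in vitro. The Kdm2b protein removes methyl groups from histones and recruits a Polycomb complex to CpG islands. The Cre driver, the strain and age of the mice, and the agent and length of the stimulation are not given in the sources used here. Nothing in the labels says that the libraries of a group came from separate animals or cultures, so the p-values measure only the spread between these libraries, which may be technical.

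Expression was given in FPKM, fragments scaled to transcript length and to library size, and the read depth behind it is unknown. FPKM summed to between 461753 and 475374 in the in vivo libraries and between 369720 and 438763 in the in vitro libraries. The 2 tables were normalized separately, so levels in vivo and in culture are given side by side and were not tested against each other. Haemoglobin genes took 11.6% and 10.3% of the FPKM in the cKO replicate 1 libraries, unstimulated and stimulated, and at most 1.86% elsewhere. The WT replicate 2 libraries in culture had 12379 and 13273 genes listed at 0, against 9102 to 9857 in the other 6. Kdm2b itself had 112.6 and 110.4 FPKM in WT and 146.5 and 125.4 in cKO in vivo. In culture it had 84.9 and 94.9 FPKM in unstimulated WT, 89.8 and 97.4 in unstimulated cKO, 74.5 and 71.7 in stimulated WT and 66.3 and 70.5 in stimulated cKO libraries. These levels cover the whole gene and would not show the loss of single exons, so they check no label. All 7 Treg markers, Foxp3 and Il2ra among them, were above 0 in every library, and the 8 T cell markers measured were as well.

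Promoter sequence was examined for the E-box CACGTG, the site Myc and Max bind, which is a palindrome and so reads alike on both strands. RefSeq windows of GRCm38.p6, from 250 bases before to 50 bases after each transcription start, were at hand for 35 of the 41 genes, and not for Myc, Rrs1, Rrp12, Bop1, Fbl and Npm1. The E-box was present in 7 of the 35 (20%), against 1038 of the 8505 genes with a window that were tested in culture (12.2%) and 2187 of 27025 genes in all (8.09%). The 5 shown here are the ones whose gene rose after stimulation; each is 30 bases long, on the gene's own strand, with the E-box in capitals.

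Tsr1, chr11:74898092-74898121, plus strand: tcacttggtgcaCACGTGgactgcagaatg

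Mybbp1a, chr11:72441347-72441376, plus strand: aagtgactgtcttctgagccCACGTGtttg

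Nop2, chr6:125131811-125131840, plus strand: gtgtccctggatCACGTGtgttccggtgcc

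Wdr43, chr17:71616220-71616249, plus strand: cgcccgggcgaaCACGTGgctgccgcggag

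Utp20, chr10:88826765-88826794, minus strand: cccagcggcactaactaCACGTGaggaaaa

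In Nop2 the E-box began 60 bases before the start. In the other 4 it lay 18 to 41 bases after it, and within the 250 bases upstream alone 1 of 35 genes held it (2.86%), against 10.2% of the genes tested in culture. Ltv1 and Pes1, which did not pass the test after stimulation, made up the 7. The related letters CACGCG, searched on both strands, were in 13 of the 35 windows (37.1%) and in 20.8% of those of the genes tested in culture. Within the 250 bases upstream alone they were in 5 of 35 (14.3%), against 17.1% of the genes tested in culture. Among genes that rose over both genotypes, CACGTG was in 5 of the 20 members with a window (25%) and in 69 of all 461 (15%). CACGCG was in 6 of those 20 members (30%) and in 117 of the 461 (25.4%). A match is a run of letters and was not examined for binding.

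The stimulation comparison asked how the levels of these genes in cultured Treg differed between stimulated and unstimulated libraries. Myc and at least 1 member of every other role rose after stimulation in the test over both genotypes. In WT alone no RNA polymerase I subunit, box C/D or box H/ACA protein passed, and in cKO alone no box C/D protein did. Over both genotypes together, 24 of the 41 rose and 1, Nop10, fell in limma's test at an adjusted p under 0.05, against 5.42% and 7.0% of all 10710 genes tested. In WT alone 6 rose and none fell, where 1.61% of all genes were called higher, 0.822% lower and 2.43% either way. In cKO alone 13 rose and none fell, where 2.08% were called higher, 2.49% lower and 4.58% either way. At an unadjusted p under 0.05 the members numbered 28 of 41 in WT, 27 in cKO and 34 over both genotypes, against 2002, 2296 and 3287 of the 10710 genes.

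The median log2 fold change of the 41 genes, on the log2(FPKM + 1) scale that understates the change of low genes, was 0.59 in WT and 0.56 in cKO. Over all genes tested it was -0.04 in WT and -0.14 in cKO. Scaling by the median of ratios moved these to 0.62 and 0.69 for the members and -0.01 and -0.02 for all genes. Rescaling to a common sum changed the split of all calls over both genotypes from 580 higher and 750 lower to 772 and 432, with 28 members higher and none lower. In WT, the stimulated libraries lay above the unstimulated ones without overlap for 32 of the 41 genes, a pattern held by 18.8% of all genes, and below them for 2, Nop10 and Polr1c, against 22.9%. In cKO the count was 37 above, against 20.7% of all genes, and 1 below, Nop10, against 44.1%. All 4 stimulated libraries lay above all 4 unstimulated ones for 28 members, against 8.11% of all genes. In bulk RNA, fewer cells of a type and less RNA per cell cannot be told apart.

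**Figure D1:**
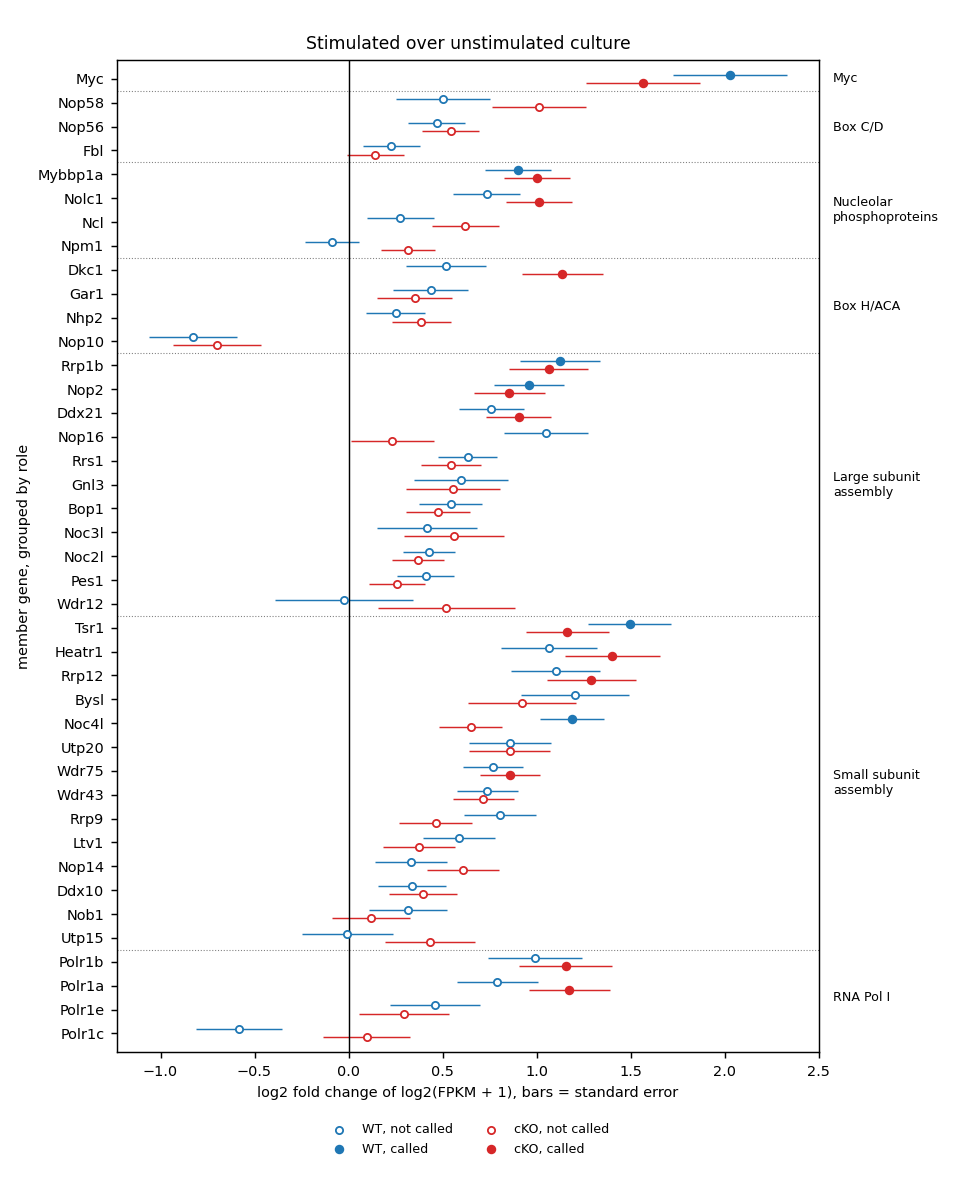
Log2 fold change of log2(FPKM + 1), stimulated over unstimulated, for each of the 41 genes (rows, grouped by role) in WT (blue) and cKO (red), 2 libraries a group; bars are standard errors and filled points passed limma's test at an adjusted p under 0.05. Points lie right of 0 for 36 genes in WT and 40 in cKO, with Npm1, Utp15 and Wdr12 in WT crossing 0 under other scalings; Nop10 lies at -0.83 in WT and -0.70 in cKO.

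The summed FPKM of the 41 genes was 1335 and 1456 in unstimulated WT, 1346 and 1341 in unstimulated cKO, 1795 and 1927 in stimulated WT and 1969 and 2043 in stimulated cKO libraries. All stimulated libraries were higher than all unstimulated ones. The order held without Npm1, which is the most abundant member, with 882 to 1020 FPKM unstimulated against 1409 to 1478 stimulated. It also held after rescaling each library to a common sum, with 1217 to 1527 against 1902 to 2180. The in vivo WT libraries summed to 2245 and 2158, and the in vivo cKO libraries to 1996 and 2159.

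**Figure D2:**
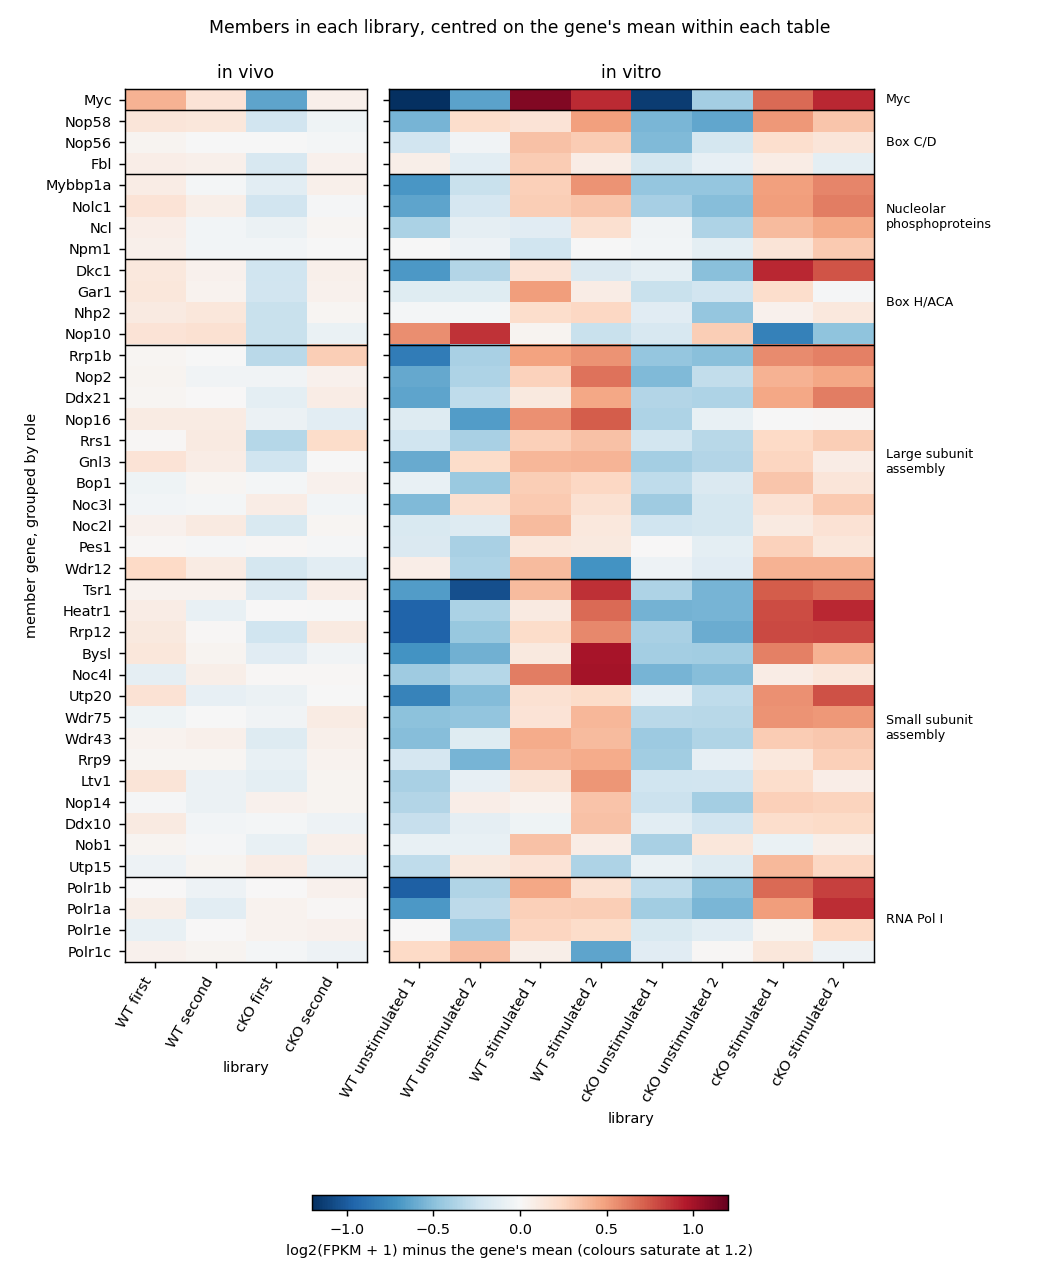
Each of the 41 genes (rows, grouped by role) in each library (columns), as log2(FPKM + 1) minus the gene's mean within its table, with red above and blue below that mean and colours saturating at 1.2. The stimulated columns in culture are redder than the unstimulated ones for most rows, and Nop10 runs the other way. The in vivo columns are pale, with the first cKO library lowest for 23 of the 41 genes. The share of all genes lowest in that library was not counted.

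Myc (chr15:61985391-61990374 in GENCODE's GRCm38 annotation) had 20.8 and 36.2 FPKM in unstimulated WT, 25.4 and 42.8 in unstimulated cKO, 124 and 107 in stimulated WT and 92.2 and 108 in stimulated cKO libraries. Every stimulated library was above every unstimulated one, and the genotypes overlapped within each condition. The group means were 28.5 ± 10.9 FPKM in unstimulated WT, 115.6 ± 11.9 in stimulated WT, 34.1 ± 12.3 in unstimulated cKO and 100 ± 11.1 in stimulated cKO (SD, n = 2 each). Myc rose by 2.03 on the log2 scale in WT (SE 0.30, limma adjusted p = 0.0167) and by 1.57 in cKO (SE 0.30, adjusted p = 0.034). It ranked 12th and 8th by mean FPKM among the 41 genes in unstimulated WT and cKO and 4th in both stimulated groups.

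RNA polymerase I transcribes the ribosomal RNA precursor, and Polr1a and Polr1b encode its largest and second largest subunits. Polr1a had 6.23 and 8.42 FPKM in unstimulated WT, 7.74 and 7.01 in unstimulated cKO, 13.2 and 13.3 in stimulated WT and 15.5 and 20.5 in stimulated cKO libraries. Polr1b had 4.4 and 7.27 FPKM in unstimulated WT, 7.64 and 6.5 in unstimulated cKO, 13.6 and 11.1 in stimulated WT and 16.1 and 17.8 in stimulated cKO libraries. For both genes all stimulated libraries were above all unstimulated ones, and both rose over the 2 genotypes together (log2 fold change 0.98, SE 0.15, adjusted p = 0.00707 for Polr1a; log2 fold change 1.07, SE 0.17, adjusted p = 0.00852 for Polr1b). Each also passed the test in cKO (adjusted p = 0.0282 and 0.0455) and not in WT (0.11 and 0.0896). Polr1c, a subunit shared with RNA polymerase III and the most abundant of the 4, did not pass the test, with 37.1 and 40.5 FPKM in unstimulated WT, 28.4 and 31.5 in unstimulated cKO, 32.9 and 19.8 in stimulated WT and 34.3 and 29.9 in stimulated cKO libraries. Its stimulated WT libraries lay below the unstimulated ones and the cKO libraries overlapped (log2 fold change -0.58 in WT and 0.10 in cKO). Polr1e, the counterpart of a yeast subunit that helps initiation, was among the lowest members, with 4.88 and 3.33 FPKM in unstimulated WT, 4.17 and 4.38 in unstimulated cKO, 6.03 and 5.84 in stimulated WT and 5.01 and 5.95 in stimulated cKO libraries. All its stimulated libraries were higher, and the test was not passed (log2 fold change 0.38, SE 0.17, adjusted p = 0.178).

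Of the box C/D proteins, Nop56 and Nop58 are paralogous scaffold proteins and Fbl (fibrillarin) is the methyltransferase. Nop56 had 84.1 and 96 FPKM in unstimulated WT, 68.3 and 85.5 in unstimulated cKO, 127 and 122 in stimulated WT and 114 and 109 in stimulated cKO libraries. All 4 stimulated libraries were above the 4 unstimulated ones, and Nop56 rose (log2 fold change 0.51, SE 0.11, adjusted p = 0.0221). Nop58 had 31.2 and 54.1 FPKM in unstimulated WT, 31.6 and 29.9 in unstimulated cKO, 52.4 and 65.9 in stimulated WT and 67.2 and 58.9 in stimulated cKO libraries. The unstimulated WT replicate 2 library reached into the stimulated range, the other 3 unstimulated libraries stayed below it, and Nop58 rose over both genotypes together (log2 fold change 0.76, SE 0.18, adjusted p = 0.032). Fbl had 86.4 and 74.8 FPKM in unstimulated WT, 70.7 and 76.3 in unstimulated cKO, 102 and 87.4 in stimulated WT and 87.4 and 75.3 in stimulated cKO libraries. Its stimulated and unstimulated libraries overlapped over the 2 genotypes together and its test was not passed (log2 fold change 0.18, SE 0.11, adjusted p = 0.288).

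Of the box H/ACA proteins, Dkc1 (dyskerin) is the pseudouridine synthase, and Nhp2, Gar1 and Nop10 are the small proteins that complete the particle, which also belongs to telomerase. Dkc1 had 11.4 and 14.6 FPKM in unstimulated WT, 17.4 and 13.1 in unstimulated cKO, 21.3 and 16.7 in stimulated WT and 36.3 and 32.6 in stimulated cKO libraries. Stimulated cKO libraries were the highest, and the stimulated WT replicate 2 library lay just below the unstimulated cKO replicate 1 library. Dkc1 rose over both genotypes (log2 fold change 0.83, SE 0.15, adjusted p = 0.013) and in cKO (log2 fold change 1.14, SE 0.21, adjusted p = 0.0308), and did not pass in WT (log2 fold change 0.52, SE 0.21, adjusted p = 0.249).

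Nop10 (chr2:112261926-112263269) had 25.4 and 31.9 FPKM in unstimulated WT, 14.8 and 21.1 in unstimulated cKO, 17.4 and 14 in stimulated WT and 9.29 and 11.9 in stimulated cKO libraries. Within each genotype both stimulated libraries were below both unstimulated ones, and within each condition both cKO libraries were below both WT libraries. Group means were 28.7 ± 4.57 FPKM in unstimulated WT, 15.7 ± 2.38 in stimulated WT, 18 ± 4.44 in unstimulated cKO and 10.6 ± 1.82 in stimulated cKO (SD, n = 2 each). Nop10 fell over both genotypes together (log2 fold change -0.76, SE 0.17, adjusted p = 0.0242) and did not pass the test in either genotype alone. The call was lost in 9 of 20 alternative settings, a minimum fold aside, among them rescaling to a common sum and leaving out both WT replicate 2 libraries, with adjusted p from 0.018 to 0.149 over the 20.

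Set against its partners, the ratio of Nop10 to Dkc1 in FPKM, which is a level per length, was 2.24 and 2.19 in unstimulated WT and 0.816 and 0.841 in stimulated WT libraries. In cKO it was 0.853 and 1.61 unstimulated and 0.256 and 0.364 stimulated. The in vivo WT libraries had ratios of 2.26 and 2.42, and the in vivo cKO libraries 2.16 and 2.0. Nhp2 had 30.4 and 30.5 FPKM in unstimulated WT, 28.1 and 22.2 in unstimulated cKO, 35.9 and 36.8 in stimulated WT and 32.1 and 33.8 in stimulated cKO libraries. All stimulated libraries were above all unstimulated ones, and the test was not passed (log2 fold change 0.32, SE 0.11, adjusted p = 0.0957). Gar1 ranged from 9.77 to 10.7 FPKM unstimulated and from 11.9 to 17.4 stimulated, without overlap. It did not pass limma's test (log2 fold change 0.40, SE 0.14, adjusted p = 0.104).

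**Figure D3:**
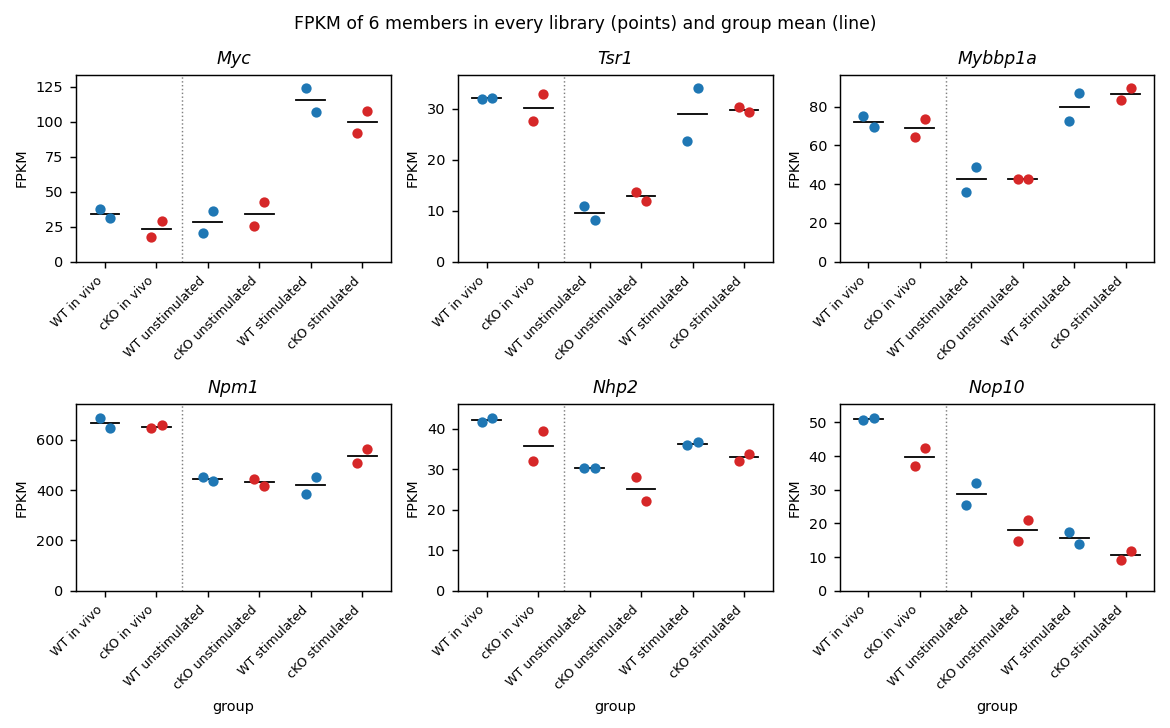
FPKM of Myc, Tsr1, Mybbp1a, Npm1, Nhp2 and Nop10 in every library (points; WT blue, cKO red) with the group mean as a line, in vivo left of the dotted line and in vitro right of it; each axis starts at 0. Myc, Tsr1 and Mybbp1a are higher in the stimulated than in the unstimulated groups, and Nop10 is lower. Nhp2 and Nop10 lie lower in cKO than in WT in each of the 3 settings, without passing limma's test in any. Of 9842 genes, 3.65% lay lower in cKO without overlap each time.

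Among the nucleolar phosphoproteins and chaperones, Mybbp1a is a Myb-binding nucleolar protein that also regulates ribosomal RNA transcription, and Nolc1 is a chaperone of the snoRNPs. Mybbp1a had 36.2 and 49 FPKM in unstimulated WT, 42.6 and 42.7 in unstimulated cKO, 72.6 and 86.9 in stimulated WT and 83.7 and 89.4 in stimulated cKO libraries. All stimulated libraries were higher than all unstimulated ones, and Mybbp1a rose in WT (log2 fold change 0.90, SE 0.18, adjusted p = 0.0446) and in cKO (log2 fold change 1.00, SE 0.18, adjusted p = 0.0252). Nolc1 had 16.8 and 23 FPKM in unstimulated WT, 20 and 18.3 in unstimulated cKO, 32.9 and 33.9 in stimulated WT and 38.1 and 41.2 in stimulated cKO libraries. Its stimulated libraries were all higher, with a rise in cKO (log2 fold change 1.01, SE 0.18, adjusted p = 0.0252) and a difference in WT that did not pass (log2 fold change 0.73, SE 0.18, adjusted p = 0.0791). Ncl (nucleolin) and Npm1 (nucleophosmin) are the abundant proteins of this class. Ncl had 91.7 and 111 FPKM in unstimulated WT, 116 and 92.4 in unstimulated cKO, 109 and 137 in stimulated WT and 156 and 164 in stimulated cKO libraries. Stimulated and unstimulated libraries overlapped in WT and not in cKO, and the test over both genotypes was not passed (log2 fold change 0.45, SE 0.13, adjusted p = 0.0567). Npm1 had 453 and 436 FPKM in unstimulated WT, 444 and 418 in unstimulated cKO, 386 and 454 in stimulated WT and 508 and 565 in stimulated cKO libraries. Its stimulated WT libraries spanned the unstimulated ones, its stimulated cKO libraries were the highest, and it did not pass (log2 fold change 0.11, SE 0.10, adjusted p = 0.492).

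Of the 14 factors of small subunit assembly, 9 rose over both genotypes together and none fell; all 14 had a log2 fold change above 0, with a median of 0.77. Tsr1 (chr11:74898071-74909342) is a late factor of the pre-40S particle. It had 10.9 and 8.13 FPKM in unstimulated WT, 13.7 and 11.9 in unstimulated cKO, 23.8 and 34 in stimulated WT and 30.4 and 29.3 in stimulated cKO libraries. Stimulated libraries were all higher, by 1.5 on the log2 scale in WT (SE 0.22, adjusted p = 0.0161) and 1.16 in cKO (SE 0.22, adjusted p = 0.032), so that Tsr1 rose in both. Noc4l, part of the Nop14 complex, had 17.6 and 18.7 FPKM in unstimulated WT, 16 and 16.5 in unstimulated cKO, 37.1 and 48.8 in stimulated WT and 25.6 and 26.5 in stimulated cKO libraries. The stimulated WT libraries stood above all others, and Noc4l rose in WT (log2 fold change 1.19, SE 0.17, adjusted p = 0.0145) while the cKO difference did not pass (log2 fold change 0.65, SE 0.17, adjusted p = 0.0759).

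Heatr1, Utp20, Utp15, Wdr43 and Wdr75 belong to the processome that forms on the nascent precursor, and Wdr43, Wdr75, Heatr1 and Utp15 to the early part of it that binds the precursor during transcription. Heatr1 had 8.47 and 13.1 FPKM in unstimulated WT, 11.4 and 11.5 in unstimulated cKO, 18.8 and 28.5 in stimulated WT and 30.6 and 33.4 in stimulated cKO libraries. Wdr75 had 11.1 and 11.2 FPKM in unstimulated WT, 12.6 and 12.5 in unstimulated cKO, 18.1 and 21.4 in stimulated WT and 23.7 and 23.5 in stimulated cKO libraries. Stimulated libraries were all higher for both genes, and both rose in cKO (log2 fold change 1.40, SE 0.25, adjusted p = 0.0264 for Heatr1; log2 fold change 0.86, SE 0.16, adjusted p = 0.0304 for Wdr75) and did not pass in WT (adjusted p = 0.0766 and 0.054). Wdr43 had 20.5 and 26.7 FPKM in unstimulated WT, 21.6 and 22.8 in unstimulated cKO, 40.7 and 38.8 in stimulated WT and 36.7 and 37.4 in stimulated cKO libraries. Utp20 had 3.27 and 4.2 FPKM in unstimulated WT, 5.95 and 5.04 in unstimulated cKO, 7.44 and 7.66 in stimulated WT and 9.89 and 11.7 in stimulated cKO libraries. Stimulated libraries were again all higher, and both rose over the 2 genotypes together (log2 fold change 0.73, SE 0.12, adjusted p = 0.00753 for Wdr43; log2 fold change 0.86, SE 0.15, adjusted p = 0.0119 for Utp20) without passing in either genotype alone.

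Rrp12, which serves the export of pre-ribosomal particles, had 4.21 and 6.4 FPKM in unstimulated WT, 6.7 and 5.71 in unstimulated cKO, 10.8 and 14.1 in stimulated WT and 16.6 and 16.6 in stimulated cKO libraries. It rose in cKO (log2 fold change 1.29, SE 0.24, adjusted p = 0.0281) and not in WT at this threshold (log2 fold change 1.10, SE 0.24, adjusted p = 0.0578), with all stimulated libraries higher. Bysl (bystin), a factor of late pre-40S maturation, had 4.37 and 4.92 FPKM in unstimulated WT, 5.68 and 5.62 in unstimulated cKO, 8.64 and 16.5 in stimulated WT and 12.4 and 10.8 in stimulated cKO libraries. Rrp9, a box C/D protein specific to the U3 snoRNP, had 15.2 and 11.6 FPKM in unstimulated WT, 12.9 and 16.3 in unstimulated cKO, 23.7 and 24.3 in stimulated WT and 19.2 and 21.6 in stimulated cKO libraries. Both genes had all stimulated libraries above all unstimulated ones and rose over both genotypes together (log2 fold change 1.06, SE 0.20, adjusted p = 0.0153 for Bysl; log2 fold change 0.63, SE 0.14, adjusted p = 0.024 for Rrp9). The other 5 factors did not pass: Ltv1, a pre-40S factor, at 0.48, Nop14 at 0.47, the helicase Ddx10 at 0.37, the endonuclease Nob1 at 0.22 and Utp15 at 0.21 (log2 fold changes over both genotypes, adjusted p from 0.055 for Ltv1 to 0.44 for Utp15).

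Of the 11 factors of large subunit assembly, 7 rose over both genotypes together and none fell; the median log2 fold change was 0.58. Rrp1b, a nucleolar protein of the Rrp1 family, had 4.11 and 5.99 FPKM in unstimulated WT, 5.63 and 5.47 in unstimulated cKO, 11.7 and 12.3 in stimulated WT and 12.5 and 12.9 in stimulated cKO libraries. Nop2, a ribosomal RNA methyltransferase, had 14.2 and 16.9 FPKM in unstimulated WT, 15.1 and 17.9 in unstimulated cKO, 27.2 and 35.6 in stimulated WT and 30 and 31.1 in stimulated cKO libraries. Both genes had all stimulated libraries higher and rose in both genotypes: Rrp1b by 1.12 on the log2 scale in WT and by 1.06 in cKO (adjusted p = 0.0401 and 0.0362), and Nop2 by 0.96 and 0.86 (adjusted p = 0.0449 and 0.0475). Ddx21, a DEAD-box RNA helicase, had 43.4 and 54.7 FPKM in unstimulated WT, 52.8 and 52.1 in unstimulated cKO, 73.5 and 94 in stimulated WT and 94.2 and 104 in stimulated cKO libraries. It rose in cKO (log2 fold change 0.91, SE 0.17, adjusted p = 0.0329) and did not pass in WT (log2 fold change 0.76, SE 0.17, adjusted p = 0.0691), again without overlap.

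Nop16, which binds the pre-60S particle, had 10.3 and 6.92 FPKM in unstimulated WT, 8.73 and 10.8 in unstimulated cKO, 17.4 and 19.8 in stimulated WT and 11.5 and 11.7 in stimulated cKO libraries. The stimulated WT libraries stood apart from the other 6 and the stimulated cKO libraries were barely above the unstimulated ones, with log2 fold changes of 1.05 and 0.23; Nop16 rose over both genotypes together (log2 fold change 0.64, SE 0.16, adjusted p = 0.0365). Rrs1, which recruits the 5S ribonucleoprotein, had 13.1 and 11.7 FPKM in unstimulated WT, 13.3 and 12.2 in unstimulated cKO, 19.2 and 20.3 in stimulated WT and 18.6 and 19.5 in stimulated cKO libraries. Noc2l, of the Noc complexes, had 43.7 and 44.5 FPKM in unstimulated WT, 42.1 and 42.7 in unstimulated cKO, 65.2 and 54.4 in stimulated WT and 53.8 and 56.3 in stimulated cKO libraries. Each of the 2 had all stimulated libraries higher and rose over both genotypes (log2 fold change 0.59, SE 0.11, adjusted p = 0.015 for Rrs1; log2 fold change 0.40, SE 0.10, adjusted p = 0.0382 for Noc2l).

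Bop1, Pes1 and Wdr12 form the PeBoW complex of 60S maturation, and only Bop1 of the 3 passed the test. Bop1 had 27.5 and 21.3 FPKM in unstimulated WT, 23.7 and 26 in unstimulated cKO, 36.4 and 35.1 in stimulated WT and 37.3 and 32.6 in stimulated cKO libraries. All stimulated libraries were higher (log2 fold change 0.51, SE 0.12, adjusted p = 0.033). Pes1 had 25.7 and 21.9 FPKM in unstimulated WT, 29.2 and 26.8 in unstimulated cKO, 32 and 31.7 in stimulated WT and 35.4 and 32.1 in stimulated cKO libraries. Its stimulated libraries were all higher as well, and it did not pass (log2 fold change 0.33, SE 0.11, adjusted p = 0.0757). Wdr12 had 5.08 and 3.45 FPKM in unstimulated WT, 4.5 and 4.22 in unstimulated cKO, 6.5 and 2.49 in stimulated WT and 6.66 and 6.7 in stimulated cKO libraries. The stimulated WT replicate 2 library was the lowest of the 8 and the other 3 stimulated libraries were the highest (log2 fold change 0.25, SE 0.26, adjusted p = 0.56). Gnl3 (nucleostemin) and Noc3l had log2 fold changes of 0.58 and 0.49 over both genotypes and did not pass (adjusted p = 0.0697 and 0.124).

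The WT and cKO responses were compared through the interaction of genotype and stimulation. None of the 41 genes passed (0.0% of all 10710 genes did), and 1 member, Nop16, had an unadjusted p under 0.05, against 380 of all genes. The interaction was -0.82 for Nop16 (SE 0.31, adjusted p = 0.999), -0.54 for Noc4l (SE 0.24) and 0.62 for Dkc1 (SE 0.30), each given as cKO minus WT. Mybbp1a, Myc, Nop2, Rrp1b and Tsr1 were called in both genotypes, Noc4l in WT alone, and 8 genes in cKO alone. With no interaction passing, these lists do not show that any of the genes responded differently in WT and cKO.

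Which genes passed depended on the libraries. Without both cKO replicate 1 libraries, the ones rich in haemoglobin, the counts fell to 1 member over both genotypes (Myc), 0 in WT and 0 in cKO. The counts over all genes fell with them, from 1330 to 128 over both genotypes, while the members' median log2 fold change was 0.59 in WT and 0.63 in cKO. Removing the haemoglobin genes and rescaling, with all libraries kept, gave 27 higher and 1 lower over both genotypes, 9 higher in WT and 13 in cKO. Over all genes that setting called 765 higher and 466 lower over both genotypes, 227 higher in WT and 267 higher in cKO. Also with all libraries kept, the rises of Bop1, Noc2l, Nop56 and Nop58 over both genotypes were not called without limma's mean-variance trend. Those of Bop1, Bysl, Nop16 and Nop58 were not called with no filter on low values. Over all genes these 2 settings called 1043 and 780 genes over both genotypes, against 1330. Without both WT replicate 2 libraries, 29 rose over both genotypes, 8 in WT and 23 in cKO. Calls over all genes moved from 580 to 797 higher over both genotypes, from 172 to 153 in WT and from 223 to 588 in cKO. Of the 25 calls over both genotypes, 14 stood whichever single library was left out; in each genotype alone no call did.

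In vivo, the comparison of cKO with WT asked whether the levels differed in Treg taken from the animal. None of the 41 genes passed limma's test, against 0.374% of all 10415 genes. At an unadjusted p under 0.05 there were 4, Nop10, Nop58, Myc and Wdr12, each lower in cKO, against 1350 of all genes. The cKO libraries lay below the WT libraries without overlap for 13 members and above for 3, where 25.8% and 21.5% of all genes did. The median log2 fold change was -0.07 over the members and -0.02 over all genes.

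Myc had 37.5 and 31.3 FPKM in WT and 17.5 and 29 in cKO libraries. Both cKO libraries were below both WT libraries, at 34.4 ± 4.37 FPKM in WT and 23.3 ± 8.13 in cKO (SD, n = 2 each), a log2 difference of -0.58 (SE 0.23, adjusted p = 0.359). Leaving out single libraries moved the Myc difference. Without the second cKO library it was -0.93 and 7 members were called lower, Myc, Nop10, Nop58, Nhp2, Gnl3, Nolc1 and Rrs1, alongside 1153 of all 10368 genes tested then; without the first it was -0.23 and no member was called. The first cKO library was the lowest of the 4 for 23 of the 41 genes. The first WT library was the highest for 20 and the second cKO library for 12. The shares over all genes were not counted. The median log2 difference of the first from the second cKO library was -0.13 over the members and -0.02 over all genes tested.

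Among the snoRNP proteins, Nop10 had 50.6 and 51.5 FPKM in WT and 37.1 and 42.5 in cKO libraries. Nhp2 had 41.8 and 42.8 FPKM in WT and 32 and 39.6 in cKO libraries. For both genes the cKO libraries were the lower ones, with log2 differences of -0.35 for Nop10 (SE 0.11, adjusted p = 0.274) and -0.24 for Nhp2 (adjusted p = 0.463). Dkc1 had 22.4 and 21.3 FPKM in WT and 17.2 and 21.3 in cKO libraries. Its libraries overlapped at the second cKO library, and the range of Gar1, 17.9 to 23.3 FPKM over the 4 libraries, held both genotypes too. Nop58 had 67.1 and 66.8 FPKM in WT and 51.4 and 58.4 in cKO libraries. Nop56 had 159 and 154 FPKM in WT and 154 and 152 in cKO libraries. Fbl had 153 and 151 FPKM in WT and 126 and 149.9 in cKO libraries. All 3 box C/D genes were lower in cKO without overlap, with log2 differences of -0.28 for Nop58, -0.03 for Nop56 and -0.14 for Fbl, and none passed.

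No RNA polymerase I subunit passed the test in vivo. Polr1a had 12.1 and 10.3 FPKM in WT and 11.7 and 11.5 in cKO libraries. Polr1b had 12 and 11.5 FPKM in WT and 12.1 and 12.5 in cKO libraries. Polr1e had 4.04 and 4.36 FPKM in WT and 4.51 and 4.54 in cKO libraries. Polr1b and Polr1e were higher in cKO without overlap and Polr1a overlapped, with log2 differences from 0.06 to 0.09. Polr1c had 47.9 and 47.3 FPKM in WT and 45.3 and 44.4 in cKO libraries. It was lower in cKO without overlap, at a log2 difference of -0.08 with an adjusted p of 0.721.

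Of the phosphoproteins, Nolc1 had 43.8 and 41 FPKM in WT and 33.1 and 38.5 in cKO libraries. Mybbp1a had 75 and 69.3 FPKM in WT and 64.2 and 73.4 in cKO libraries. Nolc1 was lower in cKO without overlap (-0.24, adjusted p = 0.432) and Mybbp1a overlapped (-0.07). Ncl had 159 and 147 FPKM in WT and 142 and 153 in cKO libraries. Npm1 had 688 and 645 FPKM in WT and 645 and 657 in cKO libraries. The libraries of both overlapped, with log2 differences of -0.05 for Ncl and -0.03 for Npm1, and Npm1 was the most abundant member in all 6 groups.

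In small subunit assembly, Tsr1 had 31.9 and 32.1 FPKM in WT and 27.7 and 32.8 in cKO libraries. Heatr1 had 17.9 and 15.7 FPKM in WT and 16.8 and 16.7 in cKO libraries. Rrp12 had 11.2 and 10.4 FPKM in WT and 8.56 and 11.1 in cKO libraries. All 3 overlapped between the genotypes, with log2 differences between -0.13 for Rrp12 and 0.00 for Heatr1. Bysl had 11.9 and 11.1 FPKM in WT and 9.75 and 10.5 in cKO libraries. It was the 1 small subunit factor lower in cKO without overlap (-0.17, adjusted p = 0.563). Noc4l had 18.2 and 20.7 FPKM in WT and 19.9 and 19.9 in cKO libraries. Wdr43 had 42.5 and 42.9 FPKM in WT and 36.8 and 43 in cKO libraries. The genotypes overlapped for both. Wdr75 had 16.9 and 17.5 FPKM in WT and 17 and 18.8 in cKO libraries. Utp20 had 6.51 and 5.19 FPKM in WT and 5.33 and 5.63 in cKO libraries. Rrp9 had 26.9 and 26.9 FPKM in WT and 24.7 and 27.2 in cKO libraries. Overlap held for these 3 as well. Nop14 was higher in cKO without overlap, at 21.9 and 21.4 FPKM against 20.8 and 20 in WT.

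In large subunit assembly, Wdr12 had 5.74 and 5.13 FPKM in WT and 3.95 and 4.25 in cKO libraries. Nop16 had 14.5 and 14.5 FPKM in WT and 12.7 and 12.3 in cKO libraries. Noc2l had 81.8 and 85 FPKM in WT and 69.2 and 80.1 in cKO libraries. Each of these 3 was lower in cKO without overlap, as was Gnl3, with log2 differences of -0.33 for Wdr12, -0.25 for Gnl3, -0.20 for Nop16 and -0.16 for Noc2l. Rrp1b had 13 and 12.8 FPKM in WT and 10.1 and 16 in cKO libraries. Rrs1 had 19.5 and 20.8 FPKM in WT and 15 and 22.7 in cKO libraries. For both the first cKO library was the lowest and the second the highest of the 4. Nop2 had 19.9 and 18.9 FPKM in WT and 18.9 and 20.2 in cKO libraries. Ddx21 had 76.9 and 75.8 FPKM in WT and 69.8 and 80.6 in cKO libraries. Bop1 had 30 and 31.6 FPKM in WT and 30.7 and 32.2 in cKO libraries. The genotypes overlapped for these 3 and for Pes1, which had 34.4 and 33.8 FPKM in WT and 34.5 and 33.6 in cKO libraries.

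In unstimulated culture, no member passed the comparison of cKO with WT, against 0.0747% of all 10710 genes (0.056% higher, 0.0187% lower), and 1 member, Nop10, had an unadjusted p under 0.05, against 703 of all genes. The cKO libraries were higher without overlap for 5 members (Tsr1, Utp20, Bysl, Wdr75 and Pes1) and lower for 6 (Nop10, Nhp2, Gar1, Polr1c, Noc4l and Noc2l). Of all genes, 17.8% and 16.6% did so. Utp20 had the largest positive difference, 0.46 on the log2 scale (SE 0.22, adjusted p = 0.795), and Nop10 the largest negative one, -0.66 (SE 0.23, adjusted p = 0.638). Myc stood at 0.26 (SE 0.30) with overlapping libraries.

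In stimulated culture no member passed either, against 0.0187% of all genes. At an unadjusted p under 0.05 there were 4, with Noc4l and Nop16 lower and Dkc1 and Npm1 higher in cKO, against 1508 of all genes. Without overlap, 15 members were higher in cKO and 10 lower, where 18.5% and 29.8% of all genes were. The 15 included 3 of the 4 phosphoproteins (Ncl, Npm1 and Nolc1), Polr1a and Polr1b, and the processome proteins Heatr1, Utp20, Utp15 and Wdr75. The 10 were Nop56, Fbl, Nhp2, Nop10, Nop16, Gnl3, Nob1, Noc4l, the U3 protein Rrp9 (-0.22) and the processome protein Wdr43 (-0.10, and 0.02 with quantile normalization). The log2 difference was 0.83 for Dkc1 (SE 0.21, adjusted p = 0.171), -0.69 for Noc4l (SE 0.17, adjusted p = 0.16) and -0.21 for Myc (SE 0.30, adjusted p = 0.792). The median over the members was 0.07, and over all genes -0.05.

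**Figure D4:**
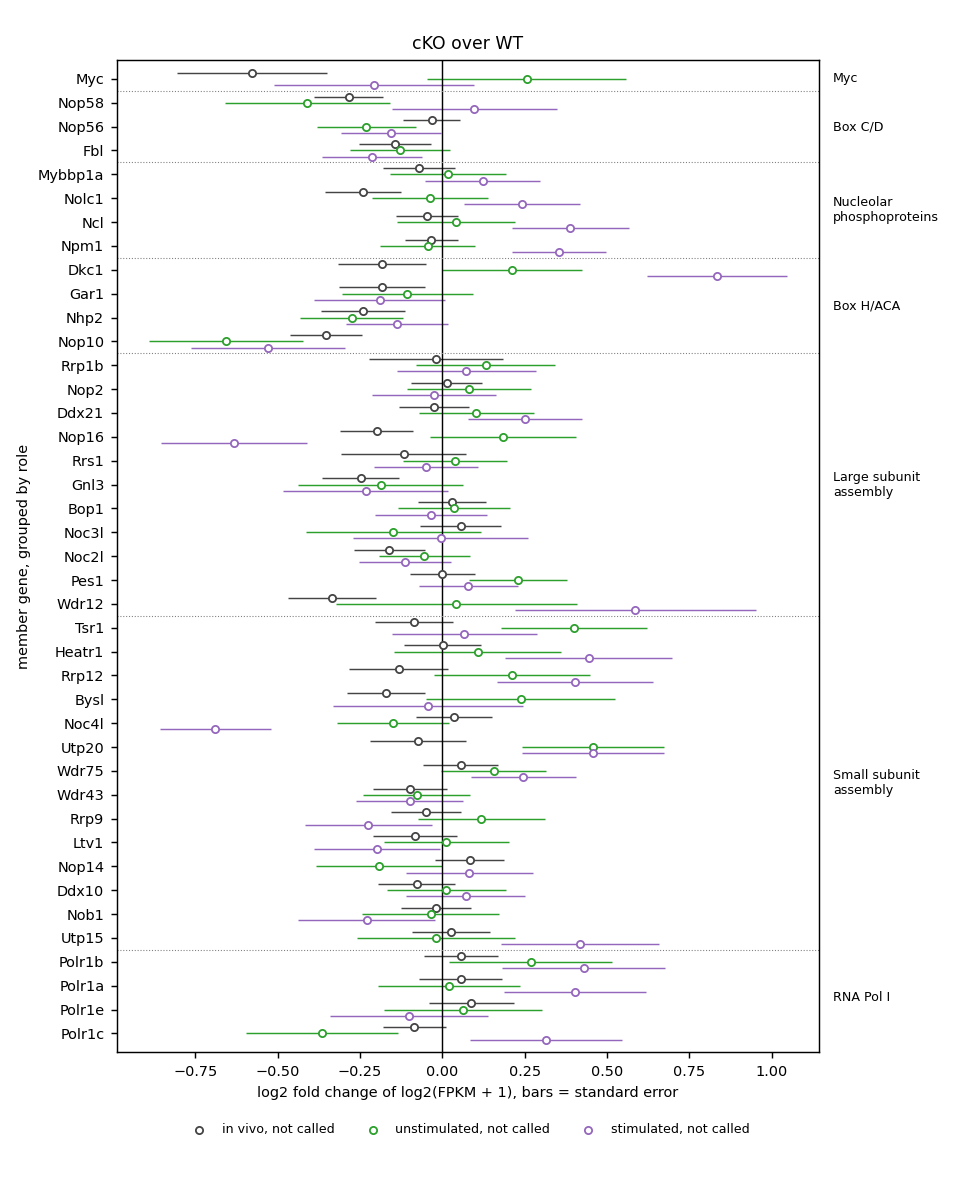
Log2 difference of log2(FPKM + 1), cKO over WT, for each of the 41 genes (rows, grouped by role) in vivo (black), unstimulated (green) and stimulated (purple), with standard errors as bars; open points did not pass limma's test, and no point passed. Nop10 lies left of 0 in all 3 settings, at -0.35, -0.66 and -0.53.

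Over the 3 settings, which share no library, Nhp2 and Nop10 were the members lower in cKO without overlap each time, 2 of 41 against 359 of 9842 genes tested in both tables (3.65%). No member was higher each time, against 2.42% of those genes. The log2 difference was below 0 in all 3, under each of the 5 scalings tried, for 7 members (Nop10, Nhp2, Gar1, Nop56, Fbl, Noc2l and Gnl3). It was above 0 for 3 (Polr1b, Heatr1 and Wdr75). None of these differences passed limma's test. The share of all genes with such signs was not counted, so these counts do not set the members apart.

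Markers of other cells moved with genotype and with libraries. The 13 B cell markers summed to 45.7 to 63.5 FPKM in the WT and 212 to 272 in the cKO libraries in culture, and to 69.4 and 88.8 in WT against 23.3 and 33.7 in cKO in vivo. At most 3 of the 13 were at 0 in a library. The 10 myeloid markers summed to 24.6 to 34.7 FPKM in WT and 48.9 to 198 in cKO in culture, and up to 6 of them were at 0. Between unstimulated and stimulated libraries the B cell sums overlapped in WT and were 254 and 272 against 212 and 212 in cKO. The summed Treg markers, of which 4 of 7 rose over both genotypes, went from 1342 and 1486 to 2516 and 2625 FPKM in WT and from 1025 and 1083 to 1941 and 1880 in cKO. Of 8 T cell markers tested over both genotypes, Cd5 and Cd3e fell and Cd2 rose, with a median log2 fold change of -0.41. The part of these cell mixtures in the results above was not tested.

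Other genes of the same pathway were counted from lists chosen by function. Of 111 further ribosome biogenesis genes tested, 23 rose over both genotypes and none fell, against 5.42% and 7.0% of all genes. Their median log2 fold change was 0.19. Under 4 other scalings 29 to 31 rose and the median lay between 0.26 and 0.30. Naf1, an assembly factor of the box H/ACA particle, had the largest rise (1.28), followed by Riok1, a kinase of pre-40S maturation (1.17), and Nifk, which binds the Ki-67 protein (1.04). Of the 14 RNA exosome genes, which trim ribosomal RNA precursors, Exosc10 rose by 0.49 and none fell, where 5.42% of all genes rose; the list's median was -0.07 and lay between 0.01 and 0.04 under the other scalings. Of 79 ribosomal protein genes tested, none rose and 2 fell (Rpl31 by 0.61 and Rpl21 by 0.44 on the log2 scale), where 7.0% of all genes fell. The median of these 79 was -0.28. With 4 other scalings it lay between -0.19 and -0.09, with at most 1 gene called in either direction.

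**Figure D5:**
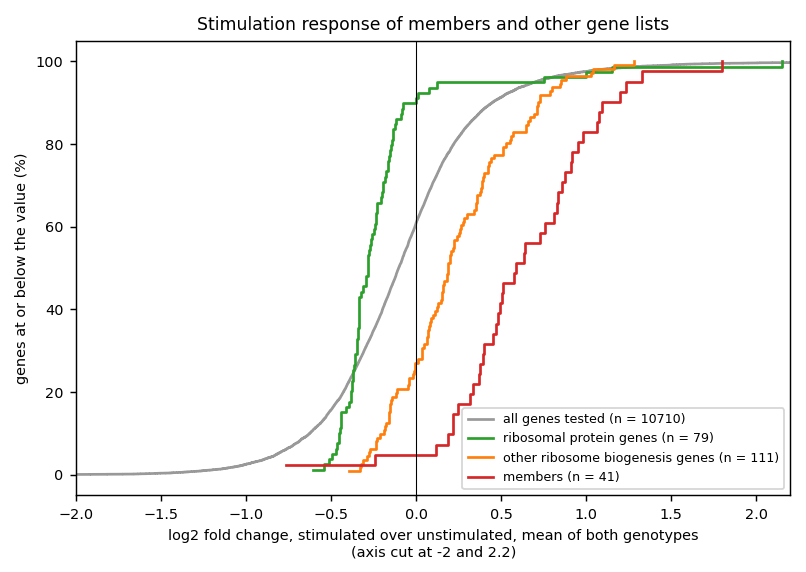
Cumulative share of genes (percent, vertical axis) at or below each log2 fold change, stimulated over unstimulated, mean of both genotypes (horizontal axis, shown from -2 to 2.2), for the 41 members (red), 111 other ribosome biogenesis genes (orange), 79 ribosomal protein genes (green) and all 10710 genes tested (grey). The median is 0.59 for the members, 0.19 for the other biogenesis genes, -0.28 for the ribosomal protein genes and -0.10 for all genes.

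Around Myc, 9 genes of its network were tested over both genotypes. Mxd4, which encodes a Max partner that opposes Myc, fell (log2 fold change -1.03, SE 0.11, adjusted p = 0.00164), and Mxd1, another such partner, rose (0.64, SE 0.15, adjusted p = 0.0307). Of 28 other known Myc target genes of growth and metabolism, 8 rose and 1 fell, against 5.42% and 7.0% of all genes. The fall was not called under 4 other scalings. The 8 included the cyclin gene Ccnd2 (1.69), the spermidine synthase gene Srm (1.57) and the serine metabolism gene Shmt1 (1.11). Mitosis genes had 0 of 21 called, a median of -0.27 and 1 at an unadjusted p under 0.05. DNA replication genes had none called higher and 2 of 22 called lower, Mcm6 and Cdt1, where 7.0% of all genes were called lower. Their median was -0.23, and it lay between -0.15 and -0.11 under the other scalings, with 1 or 2 called lower.

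Gene structure was set beside the values. Exons of 14 members overlap those of another protein-coding gene on the opposite strand in the GENCODE annotation of GRCm38, among them Tsr1 (with Srr), Nop56 (Idh3b), Bysl (Ccnd3), Dkc1 (Mpp1), Nhp2 (Rmnd5b), Mybbp1a (Spns2) and Heatr1 (Lgals8). The sources used here do not give whether reads were counted by strand, so the reads of such partners cannot be told apart in these values. Small nucleolar RNA genes lie inside 7 members, 21 in all: 5 in Nop56, 4 in Nop58, 3 each in Ncl, Wdr43 and Gnl3, 2 in Tsr1 and 1 in Dkc1.

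Transcript length was set beside the response. The median log2 fold change over both genotypes was 0.85 for the 20 members whose longest coding transcript exceeded 2923 bases, their median length, and 0.48 for the other 21. Across the 41 genes, which share the 8 libraries and are not independent replicates, Spearman's rho of the response with that length was 0.31 in WT, 0.655 in cKO and 0.483 over both. Across 10085 tested genes with a coding transcript it was 0.295 in WT, 0.382 in cKO and 0.38 over both. The part of length in the members' responses was not tested.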

How the data were processed

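The authors deposited gene expression as FPKM in 2 tables, 1 for the 4 in vivo and 1 for the 8 in vitro libraries, and these were used as given. Per the submitters' processing notes, HISAT2 2.2.1, StringTie 2.1.1 and the builds mm10 and hg19 were named; their roles, the annotation and whether counting used strand are not given in the sources used here. Read depth is unknown, and whole reads could not be recovered from the FPKM, so no count model was used. In vivo, 16196 of 16232 gene numbers matched a RefSeq symbol. In vitro, 23204 of 24421 gene names were RefSeq symbols and a further 1069 were matched through a synonym. There, 4 further per-sample columns were not used.

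Each table was fitted alone with limma 3.58.1 in R 4.3.3 on log2(FPKM + 1), with a mean-variance trend and two-sided tests. Genes were kept where their FPKM averaged 1 or more over the fitted libraries, which were 10415 in vivo and 10710 in vitro and included all 41 members. Benjamini-Hochberg adjustment ran over all genes tested, and a gene was called at an adjusted p under 0.05. The 8 in vitro libraries shared 1 model of 4 groups. The fit was also run on simulated data with independent noise and known changes. Those data held no shift shared by the genes of a library, so the run says nothing about such shifts here.

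The members and lists were chosen with earlier results of these data known, so no p was adjusted over a list and no list was tested. Values in every library are given for Myc, for members called in any comparison, and per role for the member with the highest mean level and the one with the largest change in each comparison. Other lists are given by counts, with at most 3 called genes named. Alternatives changed the pseudocount, the filter, the scaling, limma's variance settings, the threshold, the replicate block and the libraries kept.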

Additional observations from a re-analysis of the deposited data

Results flagged for a closer look

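For 3 members the genotypes stood apart in opposite directions in vivo and in culture, with no overlap between the libraries either time. Of all genes, 25.8% were lower in cKO without overlap in vivo, 17.8% were higher in unstimulated culture and 18.5% in stimulated culture. The share of all genes standing apart in opposite directions was not counted, so this count does not set the members apart. Nolc1 was lower in cKO in vivo (log2 difference -0.24) and higher in cKO after stimulation (0.24). Wdr12 was lower in cKO in vivo (-0.33) and higher in cKO after stimulation (0.59). Bysl was lower in cKO in vivo (-0.17) and higher in cKO in unstimulated culture (0.24). None of these differences passed limma's test, and the difference between settings was not tested, since the tables were normalized separately.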

How the results depend on the processing

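No member called in a stimulation comparison changed direction under any alternative, and the cause of the changes below was not tested. Calls over all genes moved as well, also where 1 library was left out, so the ranges of member counts below do not set the members apart. In WT, 172 of 10710 genes higher became 65 of 17257 with no filter and 210 of 7825 with a 5 FPKM minimum. They became 146 with a pseudocount of 0.1, 109 without a variance trend and 189 with the replicate block. In cKO, 223 higher became 102 with no filter, 118 without a variance trend and 222 with the replicate block. With 2 libraries a group, and with depth unknown, a call often turned on 1 library; where a fit leaves 1 library in a group, that library is assumed to vary like the other groups. In vivo, leaving out 1 library gave 0 to 7 members called lower, the 7 without the second cKO library; none was called higher. In WT, 6 members higher became 1 with no filter on low values, 10 with a minimum mean of 5 FPKM, 4 with a pseudocount of 0.1, 4 without a variance trend, 4 with a fold minimum, 0 once the cKO replicate 1 pair was dropped and 0 when only the 4 libraries compared were fitted; leaving out 1 library gave 0 to 12 higher and 0 to 1 lower. Dropping the cKO pair and fitting only the 4 libraries left 32 and 34 of all genes called in WT, against 260. In cKO, 13 higher became 1 with no filter, 2 without a variance trend, 23 without the WT replicate 2 pair, 0 without the cKO replicate 1 pair and 23 with only the 4 libraries; leaving out 1 library gave 0 to 16. Calls over all genes in cKO, 490 in either direction, were 1932 without the WT pair, 1 without the cKO pair and 1918 with only the 4 libraries. Over both genotypes, 24 higher became 7 with a fold minimum and 1 without the cKO replicate 1 pair, and leaving out 1 library gave 14 to 29. The 1 lower (Nop10) became 0 with no filter, with the common sum, with a fold minimum and without either of these pairs, and leaving out 1 library gave 0 to 2. The E-box count fell from 7 to 1 with the 250 upstream bases alone. The main fit did not take the in vitro numbers as pairs, and the labels do not say whether libraries of the same number belong together. Within a genotype, libraries of the same number correlated in their deviations at 0.239 between the WT groups and 0.42 between the cKO groups. Between the genotypes the correlation was -0.138 unstimulated and 0.04 stimulated. The replicate block gave both genotypes a shared effect of the number, so pairing within a genotype was not fitted. With the replicate block, 8 members rose in WT, 12 in cKO and 24 over both genotypes, with 1 lower, and 0 differed by genotype. A crossed pairing, chosen after seeing the data, called 0 members in the unstimulated genotype comparison. In vivo, no paired analysis was possible because the columns carry no replicate number. The fit to only 4 libraries does not apply to the mean response or the interaction.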
